A study of Homo sapiens with 12 samples.

Results

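SLAMF7, LINC00973 and ARC were the 3 genes with the largest ranked rise in RNA in melanoma cells exposed to resveratrol (RSV) against vehicle (DMSO). Of 56638 genes counted, 16080 were tested, and only rises were ranked, so genes lowered by RSV were not candidates. Candidates were called in this comparison, had libraries that did not overlap and had a mean count with RSV of at least 50. Among them, SLAMF7, LINC00973 and ARC were chosen by the fitted fold change of RSV against DMSO, from the highest down. Their values in the RSV and DMSO libraries are therefore a description and were not tested. Tests of the members compared only libraries that the choice did not use, with the spread estimated over all 12 libraries. SLAMF7 RNA was present in all 6 libraries with RSV, at a lower level where vemurafenib (Vem) was given with it. LINC00973 and ARC RNA were near 0 in cells that received RSV and Vem together, and high in cells that received RSV alone or with TCDD.

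501Mel is an established human melanoma line that carries an activated BRAF kinase, and the study asked how ligands of the aryl hydrocarbon receptor (AhR) change its transcriptome. Cells were exposed for 48 h to DMSO, to 1 µM Vem, to 5 µM RSV, to 10 nM TCDD, to RSV+Vem or to RSV+TCDD, and 2 libraries were made per group. Vem is a BRAF inhibitor that also binds AhR, TCDD is a dioxin and a strong AhR agonist, and RSV is a plant polyphenol used here as an AhR antagonist. All groups shared this 1 line and its culture medium. In RSV+TCDD the TCDD dose was 10 nM by the treatment protocol and the paper, but 1 nM by the label of those libraries, so RSV+TCDD and TCDD may differ in dose as well as in RSV.

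Counts on genes ranged from 8378655 to 25076925 per library, and RIN values, a score of RNA integrity, from 8.6 to 9.7. The RSV+Vem libraries had the 2 lowest RIN values, 8.7 and 8.6, and RSV+Vem replicate 2 had the fewest counts. All 8 melanocyte markers listed, MLANA, PMEL, TYR, TYRP1, DCT, SOX10, MITF and S100B, were expressed in this line. No source states that replicates came from separate cultures, so the p-values measure the spread between these libraries only. Levels are given as CPM, the count of a gene relative to the total of its library, after TMM scaling for library composition. The count of reads of a gene cannot separate more RNA per cell from more cells that express it.

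SLAMF7 (CRACC, CS1) is a surface receptor of the SLAM family, which binds itself on neighbouring cells and is known from natural killer cells, other leukocytes and plasma cells, where it is an antibody target in myeloma. ARC is a neuronal early gene whose protein descends from the Gag protein of a retrotransposon, forms capsids that carry RNA, and takes part in the endocytosis of glutamate receptors at synapses. In neurons ARC is transcribed soon after activity through the MAP kinase ERK, the cascade that BRAF feeds, together with early transcription factors of the FOS and EGR families. LINC00973 is a long non-coding RNA.

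SLAMF7 lies on chromosome 1 (GRCh37, chr1:160708847-160724611, plus strand), with 4833 exonic bases in 6 segments. SLAMF7 was counted 3 and 1 times in the DMSO libraries and 226 and 243 times in the RSV libraries. The DMSO mean was 0.0961 ± 0.0787 CPM (SD, n = 2), against 13.2 ± 0.608 CPM with RSV. This was the widest ratio of the 3 genes, 146-fold on pooled counts, with a 95% counting interval from 56.8 to 540, and both RSV libraries lay far above both DMSO libraries.

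LINC00973 lies on chromosome 3 (GRCh37, chr3:98699902-98701940, plus strand), with 962 exonic bases in 2 segments. LINC00973 had 4 counts in each DMSO library and 256 and 155 counts in the RSV libraries, at 15.4 and 8.14 CPM. The ratio of RSV to DMSO was 64.1-fold (counting interval from 32.2 to 150), and no RSV library came near the DMSO libraries. A gene annotated as an unnamed lncRNA overlaps LINC00973 on the same strand, and reads shared with it could not be separated here.

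Of the 3 genes 1, LINC00973, matched the RefSeq promoter table, with 4 start sites on GRCh38.p14, each given with 250 bases before and 50 after the start. SLAMF7 and ARC were not matched. The window of start 4 (chr3:98980805-98981104, plus strand) is shown because genes of AP-1, the dimers of FOS and JUN proteins, are among the early genes compared with ARC, and because it holds the letters of their motif, which stand in capitals.

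LINC00973 start 4: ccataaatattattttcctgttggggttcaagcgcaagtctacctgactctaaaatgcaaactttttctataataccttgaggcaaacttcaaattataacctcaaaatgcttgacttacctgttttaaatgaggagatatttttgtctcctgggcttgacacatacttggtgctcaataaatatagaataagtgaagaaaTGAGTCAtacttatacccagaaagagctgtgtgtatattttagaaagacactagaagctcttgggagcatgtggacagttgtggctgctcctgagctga

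The AP-1 motif searched was TGANTCA on both strands. It was found in 3 of the 4 start windows, and is shown for each with 11 bases on each side. The windows of starts 1, 2 and 3 begin at 98914316, 98961677 and 98966834 on chromosome 3, and that of start 4 at 98980805. They lie further apart than the annotated LINC00973 gene is long. That gene has 1 transcript, so at most 1 of the 4 is its start. The count of 3 of 4 therefore does not describe the promoter of the annotated gene.
LINC00973 start 1, match 185 bases before the start: tgtcacaatgtTGATTCAcggccacaacg
LINC00973 start 3, match 134 bases before the start: gccagacaggtTGACTCAtgtggaccaca
LINC00973 start 4, match 49 bases before the start: aagtgaagaaaTGAGTCAtacttataccc

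Of 35116 promoter windows of the same length, 7.71% held TGANTCA. The AhR core motif GCGTG, held by 36.5% of promoters, and the letters TGACGTCA and CACGTG were in none of the 4 windows. TATAAA was found in start 2 and the CArG box in start 1. Such matches describe these letters only.

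ARC lies on chromosome 8 (GRCh37, chr8:143692410-143695840, minus strand), with 2993 exonic bases in 3 segments. The DMSO libraries held 10 and 3 counts of ARC and the RSV libraries 341 and 70, at 20.6 and 3.68 CPM. The pooled ratio was 39.5-fold (counting interval from 22.8 to 74.8). The groups did not overlap, but the RSV libraries differed from each other by 5.59-fold, against 1.90-fold for LINC00973 and 1.07-fold for SLAMF7.

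RSV replicate 1 was also the higher of the pair for 19 of 21 tested early genes, with a median ratio of 1.51, while the median over all tested genes was 0.991. JUN, a partner of FOS in AP-1, reached 60.7 CPM in replicate 1 and 27.3 CPM in replicate 2. The part of this difference in the ARC level was not tested.

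**Figure D1:**
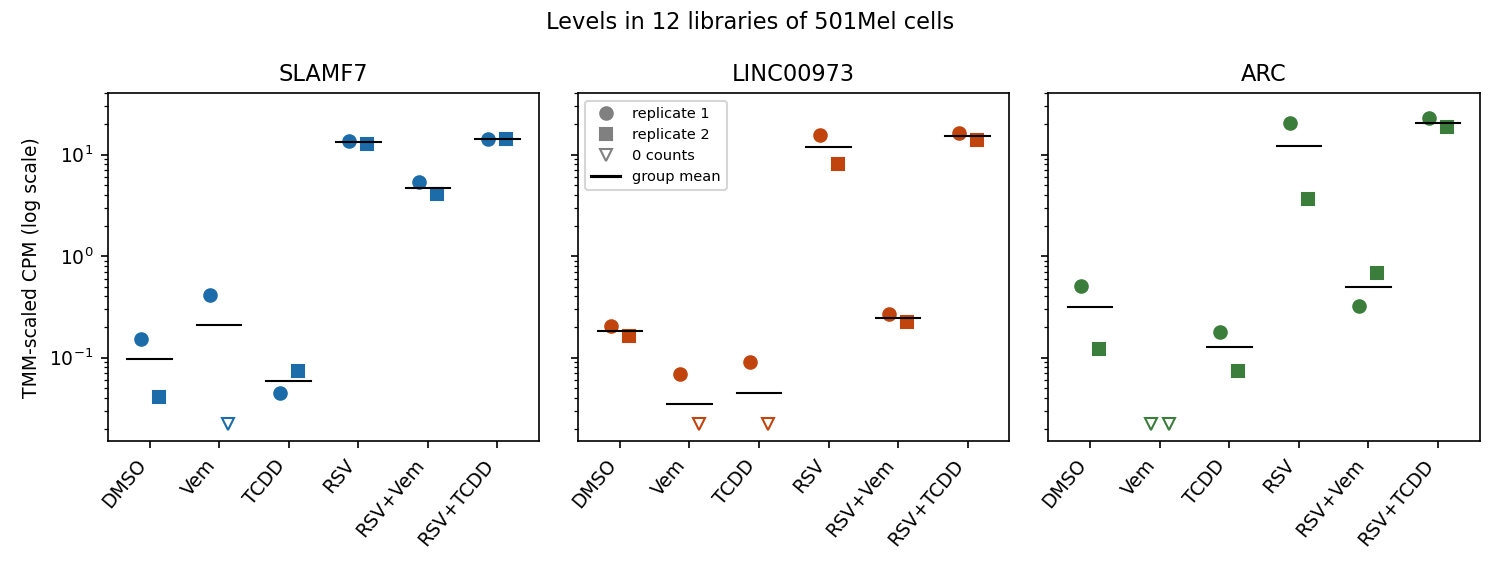
Levels of SLAMF7, LINC00973 and ARC in TMM-scaled CPM on a log axis, for 2 libraries in each of 6 groups, with lines at the group means and open triangles at the foot of the axis for libraries with 0 counts. With RSV+Vem, SLAMF7 stays at 5.37 and 4.05 CPM, whereas LINC00973 and ARC sit at or below 0.675 CPM.

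Next in the order that chose the members stood IL11, a cytokine of the IL-6 family, counted 59 and 41 times with RSV and 2 and 1 times with DMSO. HCP5, an RNA of the MHC region, and HSD3B2, an enzyme of steroid synthesis, followed. Their fitted log2 differences of RSV minus DMSO were 5.25, 4.74 and 4.67, against 7.09 for SLAMF7, 5.97 for LINC00973 and 5.31 for ARC. The step from ARC to IL11 was small, and like ARC and LINC00973, IL11 was near 0 with RSV+Vem, at 0.0562 CPM, while HCP5 was at 4.28 CPM and HSD3B2 at 1.65 CPM.

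Per length of exon, LINC00973 was the most abundant of the 3 with RSV, at 12.3 CPM per kb, followed by ARC at 4.05 and SLAMF7 at 2.73 CPM per kb. With RSV+TCDD the order was the same, at 15.7, 6.89 and 2.93 CPM per kb. With RSV+Vem it was SLAMF7, at 0.975 CPM per kb, that stood above LINC00973 at 0.255 and ARC at 0.166 CPM per kb.

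The effect of RSV was tested between groups whose 8 libraries the choice of members did not use, first on the background of TCDD. The spread in these tests was estimated over all 12 libraries, those of RSV and DMSO included. SLAMF7 was counted once in each TCDD library and 279 and 302 times with RSV+TCDD, at 14.1 and 14.2 CPM. LINC00973 was counted 2 and 0 times with TCDD and 322 and 294 times with RSV+TCDD, at 16.3 and 13.9 CPM. ARC was counted 4 times and once with TCDD and 449 and 393 times with RSV+TCDD, at 22.8 and 18.5 CPM. All 3 genes were thus almost silent with TCDD and clearly expressed with RSV+TCDD, with no overlap between groups.

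All 3 rose in this comparison (edgeR quasi-likelihood test, Benjamini-Hochberg adjusted over 16080 genes). SLAMF7 had a log2 fold change of 7.81 (SE 0.46, adjusted p = 2.41e-08), LINC00973 of 7.91 (SE 0.51, adjusted p = 4.13e-08) and ARC of 7.14 (SE 0.85, adjusted p = 1.77e-05). Of all tested genes, 18.6% were called higher. The TCDD libraries held few counts, so the size of these ratios is less certain than their direction: 254-fold for SLAMF7 (counting interval from 69.9 to 2099), 269-fold for LINC00973 (from 74.1 to 2226) and 147-fold for ARC (from 62.8 to 454).

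On the background of Vem SLAMF7 was the 1 gene of the 3 that the test called. It was counted 6 and 0 times with Vem and 101 and 36 times with RSV+Vem, or 5.37 and 4.05 CPM. SLAMF7 rose by 4.43 on the log2 scale (SE 0.47, edgeR adjusted p = 2.60e-06), a pooled ratio of 22.6 with a counting interval from 10.1 to 62.6. In this comparison 19.2% of all tested genes were called higher.

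LINC00973 was counted once and 0 times with Vem, and 5 and 2 times with RSV+Vem. Its log2 fold change of 2.57 (95% interval from -0.38 to 5.53, edgeR adjusted p = 0.159) was not distinguishable from 0, and the counting interval of the ratio, from 0.890 to 312, leaves its size unknown. RSV thus gave LINC00973 no detectable rise at this depth when Vem was present, and both RSV+Vem libraries were at 0.266 CPM or less.

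ARC was not counted in either Vem library, which allows up to 3 counts over the group, and was counted 6 times in each RSV+Vem library. Against this floor of 3 counts over both Vem libraries together, the ratio of ARC with RSV+Vem was 3.96. This ratio leaves out the counting error of the RSV+Vem counts. The main test did not call ARC (edgeR adjusted p = 0.201). Over the 18 alternatives that gave a value the adjusted p ranged from 0.000465 to 0.395, and 6 of them called ARC, among them DESeq2 (adjusted p = 0.0170) and the fit to the 8 libraries without RSV and DMSO (adjusted p = 0.00351). It was also called when either RSV library, which differed so widely for ARC, was left out (adjusted p = 0.00927 and 0.00935).

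**Figure D2:**
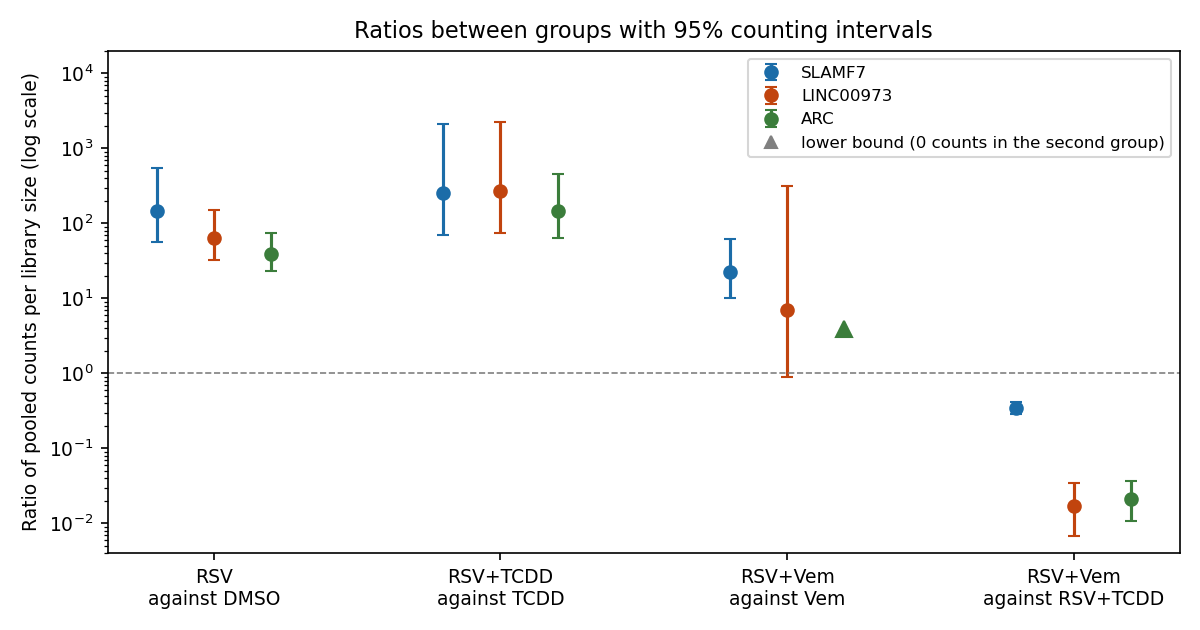
Ratio of the first group named to the second, from counts pooled over 2 libraries each and divided by library size, on a log axis, with bars for 95% counting intervals and a dashed line at 1. SLAMF7, LINC00973 and ARC are 254-, 269- and 147-fold higher with RSV+TCDD than with TCDD. With RSV+Vem against Vem the interval of SLAMF7 is clear of 1 and that of LINC00973 is not. ARC had 0 counts with Vem, and no interval was made for it. The triangle marks its ratio of 3.96 to an assumed floor of 3 counts over both Vem libraries, without counting error.

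Both groups that received RSV with a ligand were then compared directly. SLAMF7 was lower with RSV+Vem than with RSV+TCDD by 2.87-fold (counting interval from 2.38 to 3.48), with a log2 difference of -1.55 (SE 0.24, edgeR adjusted p = 0.000183). LINC00973 was lower by 59.5-fold (from 28.7 to 149), with a log2 difference of -5.86 (SE 0.43, adjusted p = 1.01e-07). ARC was lower by 47.4-fold (from 27.0 to 92.2), with a log2 difference of -5.54 (SE 0.75, adjusted p = 8.56e-05). All 3 were called, against 13.2% of all tested genes called lower, but SLAMF7 kept 33.2% of its level in RSV+TCDD while LINC00973 kept 1.63% and ARC 2.41%.

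Scaling to the spike-ins moved the log2 difference of the median gene to 0.51 in this comparison, and SLAMF7 then had a log2 difference of -1.01 and was not called (edgeR adjusted p = 0.315), whereas LINC00973 and ARC were called in all 19 alternatives that gave them a value. The lower RIN and the low depth of RSV+Vem moved with this difference and their part was not tested. Without RSV+Vem replicate 2, as without any other single library, the difference was called for all 3 genes.

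Against RSV alone, as a description, RSV+Vem held 35.7% of the SLAMF7 level, 2.08% of the LINC00973 level and 4.10% of the ARC level. The ratio of RSV+TCDD to RSV was 1.08 for SLAMF7 (counting interval from 0.952 to 1.22), 1.30 for LINC00973 (from 1.15 to 1.48) and 1.78 for ARC (from 1.58 to 2.01). For LINC00973 and ARC the libraries of these groups overlapped.

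Without RSV the 3 genes were at the limit of detection under either ligand. SLAMF7 was at 0.209 ± 0.295 CPM with Vem and 0.0593 ± 0.0201 CPM with TCDD (SD, n = 2), a log2 difference of 1.84 that was not called (edgeR adjusted p = 0.185) and that rested on 6 counts in Vem replicate 1. Without that library the difference was -3.18 (adjusted p = 0.392), and without Vem replicate 2 it was 2.75 (adjusted p = 0.0238). LINC00973 and ARC did not differ detectably between Vem and TCDD (adjusted p = 0.828 and 0.434), where 50.7% of all tested genes were called.

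Ordered by level, SLAMF7 was highest with RSV+TCDD at 14.2 and RSV at 13.2 CPM, which lay within each other's counting error, then with RSV+Vem at 4.71 CPM, and then with Vem, DMSO and TCDD, which overlapped one another. LINC00973 was highest with RSV+TCDD at 15.1 and RSV at 11.8 CPM, which overlapped, and followed in RSV+Vem at 0.245, DMSO at 0.182, TCDD at 0.0451 and Vem at 0.0348 CPM, all from 5 counts or fewer per library. ARC was highest with RSV+TCDD at 20.6 and RSV at 12.1 CPM, which overlapped, then in RSV+Vem at 0.497 and DMSO at 0.314 CPM, which overlapped too, then in TCDD at 0.127 CPM, which overlapped DMSO, and at 0 counts in Vem.

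Whether the effect of RSV itself differed between both ligands was tested as the difference of RSV+Vem minus Vem and RSV+TCDD minus TCDD. For SLAMF7 it was -3.39 on the log2 scale (SE 1.16, edgeR adjusted p = 0.0488), where 9.72% of all tested genes were called lower. For LINC00973 it was -5.33 (adjusted p = 0.213), and for ARC, with 0 counts in Vem, the fitted value of -1.16 (adjusted p = 0.929) depends on the fit's treatment of 0 and carries no size. The SLAMF7 difference rested on the 6 counts of Vem replicate 1: without that library it was 1.62 (adjusted p = 0.696), and it was no longer called without any single library of RSV, TCDD or RSV+TCDD, or without RSV+Vem replicate 2.

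The genes whose levels followed each member most closely over the 12 libraries are given next. For SLAMF7 these were RAB11FIP1, an adaptor of recycling endosomes, ANKUB1, GCNT3, a glycosyltransferase of mucin synthesis, RNF43, a ubiquitin ligase that removes Wnt receptors, and PRNP, the prion protein, with Pearson r of log2 CPM of 0.98 for the first 4 and 0.97 for PRNP. PRNP was at 28.3 CPM with DMSO and 104 CPM with RSV, and still at 76.6 CPM with RSV+Vem. ANKUB1 was at 2.25 CPM with DMSO, 16.4 CPM with RSV and 13.4 CPM with RSV+Vem.

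For LINC00973 they were SERPINE2, an inhibitor of serine proteases, CD52, a small surface glycoprotein of lymphocytes, IL11, DCBLD2, a membrane receptor, and ARC, with r of 0.99, 0.99, 0.99, 0.98 and 0.97. SERPINE2 was at 216 CPM with DMSO, 468 CPM with RSV and 248 CPM with RSV+Vem. For ARC they were CD52, HBE1, an embryonic globin, PLEKHO1, DUSP5, a phosphatase that inactivates ERK in the nucleus, and LINC00973, with r of 0.98 for the first 4 and 0.97 for LINC00973. DUSP5 was at 11.2 CPM with DMSO, 36.9 CPM with RSV, 12.4 CPM with RSV+Vem and 4.54 CPM with Vem.

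LINC00973 and ARC had a Pearson r of 0.97 with each other, and SLAMF7 had 0.87 with LINC00973 and 0.86 with ARC. These values share 6 groups and the large step between libraries with and without RSV, so they describe the profiles and were not tested. CD52 was low throughout, at 0.931 CPM or less as a group mean.

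**Figure D3:**
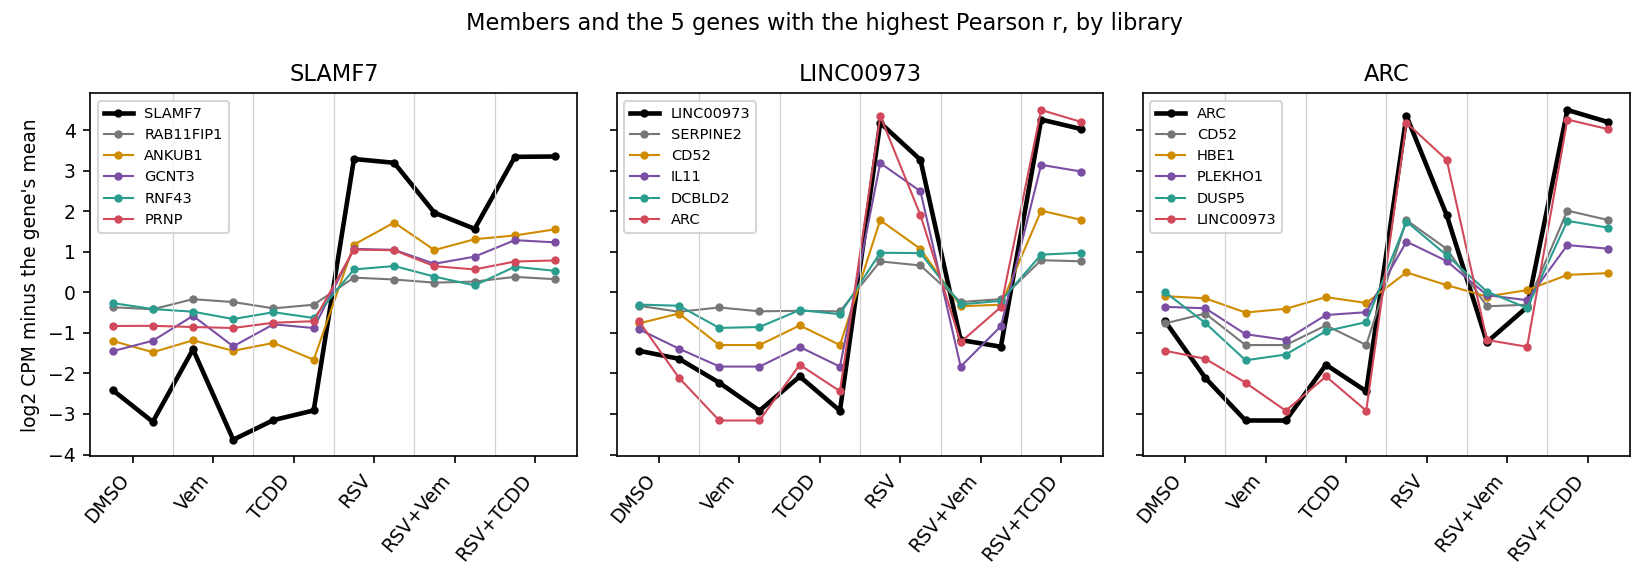
Log2 CPM minus each gene's mean over 12 libraries for SLAMF7, LINC00973 and ARC (thick black lines) and the 5 genes with the highest Pearson r to each, with 2 libraries per group side by side. The SLAMF7 profile and those like it stay raised with RSV+Vem, whereas the LINC00973 and ARC profiles and those like them fall back towards the DMSO libraries.

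The chromosomal neighbours of the members were taken from the annotation. DCBLD2, the nearest tested gene to LINC00973 on its lower-coordinate side, begins 79363 bases away on the opposite strand. It was at 107 CPM with DMSO, 261 CPM with RSV, 72.8 CPM with Vem, 111 CPM with RSV+Vem, 94.7 CPM with TCDD and 257 CPM with RSV+TCDD as group means. DCBLD2 rose with RSV by 1.29 on the log2 scale (edgeR adjusted p = 3.58e-08), with RSV+TCDD against TCDD by 1.44 (adjusted p = 2.41e-08) and with RSV+Vem against Vem by 0.61 (adjusted p = 4.26e-05), and its rise was smaller with Vem than with TCDD by -0.83 (adjusted p = 0.000163). Of the 7 tested genes within 1 Mb of LINC00973, DCBLD2 was the only one called higher with RSV, and 4 were called lower. Of all tested genes 20.5% were called higher and 20.4% lower. With RSV+Vem against Vem 3 of the 7 were called higher and 1 lower, where 19.2% and 18.7% of all tested genes were. With RSV+TCDD against TCDD 1 was called higher and 1 lower, where 18.6% and 19.1% of all tested genes were.

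CMSS1, the nearest tested gene on the other side of LINC00973, fell by 0.64 on the log2 scale with RSV (edgeR adjusted p = 0.000268). The nearest tested genes to SLAMF7 were SLAMF1, 92013 bases away, and F11R, a junction protein, 240390 bases away. SLAMF1, a relative, was not called with RSV in any background. F11R rose by 0.71 with RSV, 0.83 with RSV+Vem and 0.80 with RSV+TCDD against the matched group without RSV. For ARC they were TSNARE1, 207867 bases away, and JRK, 43034 bases away, both called lower with RSV in all 3 backgrounds. Genes that were not tested may lie nearer to the members. Within 1 Mb of SLAMF7, 13 of 41 tested genes were called higher and 4 lower with RSV. Of the same 41, 7 were higher and 9 lower with RSV+Vem, and 11 higher and 6 lower with RSV+TCDD. Within 1 Mb of ARC, 3 of 17 were called higher and 3 lower with RSV. Of the same 17, 1 was higher and 3 lower with RSV+Vem, and 5 higher and 3 lower with RSV+TCDD. Of all tested genes, 20.5% were called higher and 20.4% lower with RSV. These shares were 19.2% and 18.7% with RSV+Vem, and 18.6% and 19.1% with RSV+TCDD.

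Of 14 other SLAM receptors and adaptors listed, 5 were tested. None was called higher by RSV on the background of DMSO, TCDD or Vem, where 20.5%, 18.6% and 19.2% of all tested genes were. The 5 genes are too few to set 0 calls apart from these shares. The median log2 fold change was -0.52, -0.09 and -0.08 on these backgrounds in turn, or -0.22 on the last with groups at 0 counts set to the floor, where the medians over all tested genes were -0.0018, -0.0058 and 0.026. LY9 was at 0 counts in all 12 libraries, CD48, another SLAM receptor, reached at most 1 count, and CD244 at most 6. INPP5D, a lipid phosphatase recruited by SLAM receptors, had 0 counts in all 6 libraries without RSV, 4 and 3 with RSV, 7 and 1 with RSV+Vem and 3 and 7 with RSV+TCDD. SH2D1B, the adaptor EAT-2, had 0 counts in both TCDD libraries and 4 and 7 with RSV+TCDD, but 4 and 0 with DMSO and 2 and 6 with RSV. Both were below the filter on low counts.

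SLAMF1 was counted 7 and 13 times with RSV and 7 and 5 times with DMSO, and was not called (edgeR adjusted p = 0.132). PTPN11, the phosphatase SHP2 that binds SLAM receptors, was called lower in all 3 comparisons, by -0.69, -0.67 and -0.37, as were 20.4%, 19.1% and 18.7% of all tested genes. FYN, a kinase of the same pathway, was called lower against DMSO (-0.33), and SH2D1A, the adaptor SAP, in RSV+TCDD against TCDD (-2.06). Without any filter on low counts 12 of the 14 were tested, and 1 was called higher with RSV and 2 with RSV+TCDD. The shares of all genes called in that fit are not given here, so these counts cannot be set against them.

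SLAMF7 is best known from leukocytes, and leukocyte markers were checked beside it. PTPRC (CD45), present on leukocytes of every kind, had at most 4 counts in any library and 0 in both RSV+TCDD libraries, and CD53 had at most 2. The summed level of the 5 general leukocyte markers was from 38.7 to 48.3 CPM with DMSO and from 184 to 190 CPM with RSV. It was from 7.15 to 9.32 CPM with Vem and from 43.0 to 43.7 CPM with RSV+Vem. With TCDD it was from 36.9 to 37.4 CPM, and with RSV+TCDD from 143 to 162 CPM. Most of it was LCP1, an actin-bundling protein that many tumour lines express too. LCP1 rose with RSV by 2.16 on the log2 scale (edgeR adjusted p = 1.97e-08). LAPTM5, a lysosomal protein of leukocytes, was counted 5 and 1 times with DMSO and 15 and 16 times with RSV and was called higher (2.62, adjusted p = 0.0102). CORO1A, an actin regulator, was called higher in RSV+Vem against Vem (2.26, adjusted p = 0.00317). Of the 3 leukocyte markers tested, 2 were thus called higher with RSV, 2 with RSV+Vem and 1 with RSV+TCDD. Of all tested genes 20.5%, 19.2% and 18.6% were called higher in these comparisons, and 3 markers are too few to set apart from such shares. The part of these markers in the SLAMF7 level was not tested.

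Of the T and NK cell markers, 5 of 7 stayed at 3 counts or fewer in all 12 libraries, as did 4 of 6 B and plasma cell markers in the table and 3 of 6 monocyte markers. Within these lists CD79A, a chain of the B cell receptor complex, was counted 0 and 1 times with DMSO, 7 and 18 times with RSV, 24 and 35 times with RSV+TCDD and 24 and 12 times in the RSV+Vem libraries. It was called higher with RSV in all 3 backgrounds (edgeR adjusted p = 0.000709, 0.000961 and 4.86e-05). The summed levels of these lists stayed low: with DMSO and RSV they were at most 1.77 and 1.02 CPM for T and NK cells, 0.253 and 1.16 CPM for B and plasma cells and 0.455 and 3.50 CPM for monocytes. LYZ and CSF1R, markers of monocytes, were called higher with RSV and with RSV+TCDD but not with RSV+Vem. Their difference of the RSV effect between Vem and TCDD was not called (edgeR adjusted p = 0.447 and 0.141). GNLY, the 1 T and NK cell marker tested, was called lower with RSV (-1.15, adjusted p = 0.0345) and RSV+TCDD (-1.14, adjusted p = 0.0156). Of all tested genes, 20.5%, 18.6% and 19.2% were called higher with RSV, RSV+TCDD and RSV+Vem. With RSV and RSV+TCDD 20.4% and 19.1% were called lower.

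Of the melanocyte markers, RSV lowered 7 of 8 on each background, where 20.4%, 18.7% and 19.1% of all tested genes were called lower with DMSO, Vem and TCDD as reference, and TYRP1 fell by 1.55 on the log2 scale against DMSO and by 1.59 against Vem. S100B was called higher in each, by 0.78, 1.36 and 0.56, the last of which is smaller than the shift of -0.70 that spike-in scaling gave to the median of all genes in RSV+TCDD against TCDD. The summed level of the 8 markers was from 11162 to 12361 CPM with RSV and from 19414 to 20506 CPM with DMSO. The part of these changes in the levels of the 3 members was not tested.

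ARC is an early gene, and 21 of 24 listed early genes were tested. With RSV against DMSO 11 were called higher and 2 lower, where 20.5% of all tested genes were called higher and 20.4% lower, and the median log2 fold change was 0.61. FOSB, FOSL1, ATF3 and NR4A3, all transcription factors, changed most, by 2.11, 1.91, 1.61 and -1.29. The count of 11 fell to 4 without RSV replicate 1 and to 5 without DMSO replicate 2, and to 2 with spike-in scaling.

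With RSV+TCDD against TCDD 9 were called higher and none lower, with a median of 0.70, where 18.6% of all tested genes were called higher and 19.1% lower. EGR3, FOSB, FOSL1 and EGR2 led, with log2 fold changes of 4.94, 2.60, 2.54 and 2.39. EGR3 was counted 6 and 3 times with TCDD and 160 and 164 times with RSV+TCDD, a course like that of ARC between these groups. Unlike ARC, EGR3 was already counted 112 and 26 times with DMSO, and was not called with RSV alone (edgeR adjusted p = 0.0969).

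With RSV+Vem against Vem 14 early genes were called higher and none lower, with a median of 1.15, where 19.2% of all tested genes were called higher and 18.7% lower. LINC00973 and ARC, with fitted values of 2.57 and 5.97 from 0 to 6 counts per library, were not called in this comparison. ATF3 rose by 2.72, CYR61 by 1.98 and KLF4 by 1.93 on the log2 scale, and PTGS2 was counted 5 and 2 times with RSV+Vem and not at all with Vem. FOSL1 was counted 4 and 6 times with Vem, 18 and 5 times with RSV+Vem and 167 and 179 times with RSV+TCDD, and with RSV+Vem it was not called (edgeR adjusted p = 0.133). FOSB (adjusted p = 0.0972) and EGR3 (adjusted p = 0.223) were not called with RSV+Vem either. The direct test of the difference of the RSV effect between Vem and TCDD called none of FOSL1, FOSB and EGR3 (edgeR adjusted p = 0.186, 0.0851 and 0.616). A smaller effect of RSV with Vem was thus not shown for them.

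Vem against DMSO gave the opposite picture, 16 early genes lower and none higher, with a median of -1.49, where 25.4% of all tested genes were called higher and 27.0% lower. IER3, EGR1, EGR3 and PTGS2 were among those that fell. The early genes thus started from a lower level with Vem, and RSV+Vem brought their summed level to between 570 and 655 CPM, against 314 to 342 CPM with Vem, 624 to 1065 CPM with DMSO and 792 to 1180 CPM with RSV. In the test of the difference of the RSV effect, 4 early genes, NR4A2, IER3, ATF3 and KLF4, had a larger effect with Vem and none a smaller one, where 10.5% of all tested genes had a larger effect, and this count was 8 without either DMSO library and 2 without Vem replicate 2 or RSV+Vem replicate 1.

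**Figure D4:**
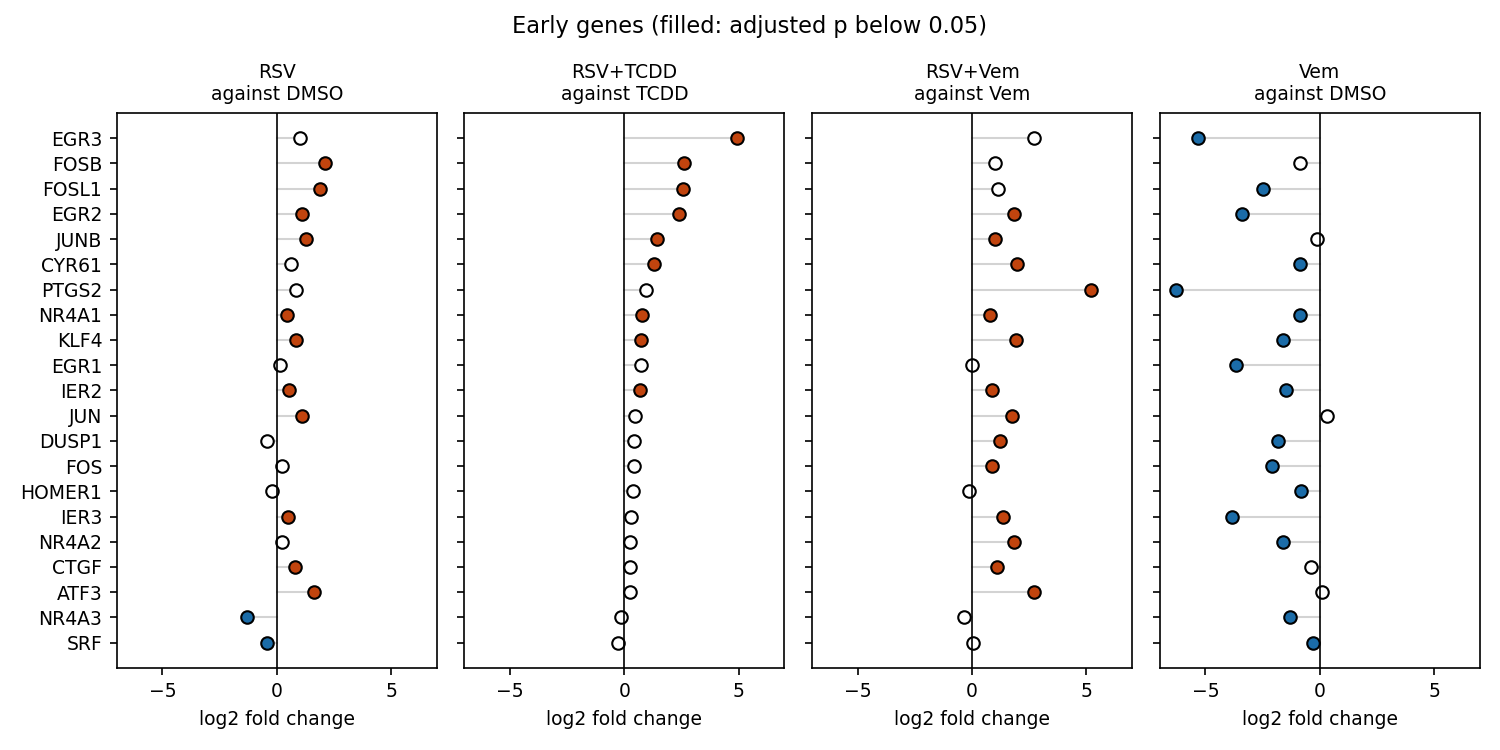
Log2 fold change of 21 tested early genes in 4 comparisons, ordered by RSV+TCDD against TCDD, with filled points (red higher, blue lower) for genes called at an adjusted p below 0.05. Points lie mainly above 0 in the 3 RSV comparisons and below 0 with Vem. EGR3, FOSB and FOSL1 are filled with RSV+TCDD but not with RSV+Vem, and the difference of the RSV effect was called for none of them. The PTGS2 and EGR3 points for Vem rest on a few counts.

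Among genes for proteins that bind ARC, or whose traffic it affects, 5 of 11 listed were tested. RSV raised 1 on the background of DMSO, 1 on that of TCDD and 3 on that of Vem, and lowered none, where 20.5%, 18.6% and 19.2% of all tested genes were called higher. Of all tested genes 20.4%, 19.1% and 18.7% were called lower, and 5 genes are too few to set 0 lower calls apart from these shares. DLG4 (PSD-95), a scaffold of the synapse, was called in all 3, by 1.34, 0.70 and 0.90 on the log2 scale. SH3GL1, an endophilin, and NOTCH1 were the others with Vem, by 0.35 and 0.76. The count with RSV+Vem was 1 without Vem replicate 2 or RSV+Vem replicate 1, that with RSV was 3 without RSV replicate 2, and that with RSV+TCDD was 0 without RSV+TCDD replicate 1.

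Of 10 genes that, like ARC, derive from Gag, 6 were tested. RSV raised 3 of them on the background of DMSO, 3 on that of Vem and 4 on that of TCDD, and lowered none, where 20.5%, 19.2% and 18.6% of all tested genes were called higher. Of all tested genes 20.4%, 18.7% and 19.1% were called lower, and 6 genes are too few to set 0 lower calls apart from these shares. ZCCHC12, a zinc knuckle protein, was counted once in each DMSO library and 15 and 16 times with RSV, was not counted with Vem or TCDD, and was counted 20 and 10 times with RSV+Vem and 14 and 4 times with RSV+TCDD. ZCCHC12 was called higher in all 3 comparisons, with Vem included (edgeR adjusted p = 0.000543). MOAP1, a regulator of apoptosis, was called in all 3, by 0.49, 0.53 and 0.94 on the log2 scale. PNMA1 rose with RSV by 0.72 and with RSV+TCDD by 0.74 but was at 0.04 with RSV+Vem, while PEG10, a placental gene, was called in RSV+Vem against Vem and in neither other comparison, by 2.00, from 294 and 280 counts with Vem. The count of 4 was 2 without TCDD replicate 1.

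Of 6 markers of neurons, the cells ARC is known from, 4 were tested. With RSV and with RSV+TCDD 0 were called higher, where 20.5% and 18.6% of all tested genes were. With RSV+Vem 1 was called higher, where 19.2% of all tested genes were. This was SYN1, from 1 and 2 counts with Vem to 12 and 6. SYN1 had 0 counts in both DMSO libraries and 4 and 0 with RSV, and was not called there (edgeR adjusted p = 0.0841). SNAP25 was called lower with RSV and with RSV+Vem, and SLC17A7 with RSV+TCDD. Of all tested genes 20.4%, 18.7% and 19.1% were called lower in these comparisons in turn. The 4 genes are too few to set apart from such shares. RBFOX3, the nuclear marker NeuN, had at most 2 counts in any library. The summed level of the 6 markers was from 17.2 to 20.1 CPM with DMSO and from 14.0 to 14.5 CPM with RSV. It was from 33.7 to 33.8 CPM with Vem and from 24.3 to 28.1 CPM with RSV+Vem. With TCDD it was from 24.9 to 27.7 CPM, and with RSV+TCDD from 20.8 to 22.3 CPM.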

How the data were processed

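RNA of 501Mel cells was measured in 12 libraries. The authors made stranded mRNA libraries, aligned read pairs to hg19 (GRCh37) with STAR 2.4.0a and counted reads per gene with featureCounts (Subread 1.5.0-p3), versions being those in the submitters' processing notes. The deposited values are raw counts for 56638 genes and for 96 controls, 92 of which belong to the ERCC set (0.0310% to 0.0936% of counts). The annotation release counted is not given in the sources used here, and positions are from GENCODE on GRCh37. Sequences are from RefSeq.

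Controls were removed, filterByExpr left 16080 genes, and edgeR 4.0.16 (R 4.3.3) fitted 1 term per group to all libraries with TMM factors from 0.890 to 1.08. The quasi-likelihood F test was two-sided with Benjamini-Hochberg adjustment over all tested genes, and genes were called at an adjusted p below 0.05. All 3 members passed the filter. Members and lists were chosen with earlier results of these data known, and lists were written from general knowledge. Genes named are the members, the next 3 in their order, the 5 most alike genes each (Pearson r of log2 CPM, prior count 2), the nearest tested neighbours and the largest called changes of each list, and EGR3, FOSL1, FOSB, PTGS2, JUN, LCP1, CD79A, INPP5D, SH2D1B and genes named for low counts or absence were added after their values were seen. Ratios are of pooled counts, with 95% Clopper-Pearson intervals that cover counting error only, since reads carried no molecular identifiers. Replicates differed by more than counting noise (chi-square per degree of freedom from 4.61 to 22.6).

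The model had no replicate block, since the numbers share no stated batch: over 15 group pairs, differences between replicates correlated above 0.1 in 3 and below -0.1 in 1, from -0.12 to 0.15. Alternatives were DESeq2 1.42.0, RLE factors, spike-in scaling, no filter, a minimum of 10 counts in each library, a block on replicate number, fewer libraries in the fit, a log2 fold change threshold of 1 and leaving out each library. The steps were tested on simulated data. Figures were drawn with matplotlib 3.10.9.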

Additional observations from a re-analysis of the deposited data

Results flagged for a closer look

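The effect of RSV on SLAMF7 differed between the backgrounds of Vem and TCDD, by -3.39 on the log2 scale (edgeR adjusted p = 0.0488), in a direct test of the difference between both effects. The effect was 4.43 with Vem (SLAMF7 counts of 6 and 0, then 101 and 36) and 7.81 with TCDD (1 and 1, then 279 and 302), and the adjusted p ranged from 0.00783 to 0.696 when single libraries were left out. The part of the 6 counts in Vem replicate 1 is given by the value without that library, 1.62.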

How the results depend on the processing

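Of 280 comparisons of a member's result with its value under an alternative, 259 kept the direction and the side of the threshold, 8 passed it only under the alternative, 9 passed it only in the main fit, and 4 reversed. All 3 members in RSV+TCDD against TCDD, SLAMF7 in RSV+Vem against Vem, and LINC00973 and ARC in RSV+Vem against RSV+TCDD were called in every alternative that gave a value. ARC in RSV+Vem against Vem was called with DESeq2 (5.14), spike-in scaling (5.85), no filter (5.97) and the 8 libraries not used to choose the members (5.88). With single libraries left out it ran from 5.59 to 6.58 with an adjusted p from 0.00927 to 0.395, and was called only without RSV replicate 1 or 2. The difference of the RSV effect was called for LINC00973 with DESeq2 (-5.33, adjusted p = 0.0301), and for SLAMF7 it was not called with spike-in scaling (-2.69, adjusted p = 0.344) and ran from -4.31 to 1.62 without single libraries, reversed at 1.62 without Vem replicate 1. SLAMF7 in RSV+Vem against RSV+TCDD was not called with spike-in scaling (-1.01). In Vem against TCDD, SLAMF7 ran from -3.18 (reversed, without Vem replicate 1) to 2.75, and LINC00973 from -3.17 to 2.59, reversed at 0.28 without Vem replicate 2 and at 2.59 without TCDD replicate 1. The causes were not tested.

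Spike-in scaling moved the median log2 fold change of all genes to -0.17 in RSV against DMSO, -0.70 in RSV+TCDD against TCDD, 0.51 in RSV+Vem against RSV+TCDD, 0.68 in the difference of the RSV effect and -0.68 in Vem against DMSO. Early genes called higher with RSV against DMSO (11), RSV+TCDD against TCDD (9), RSV+Vem against Vem (14) and in the difference (4) were then 2, 4, 5 and 1, and 1 was called lower with RSV against DMSO (2). With a threshold of 1 on the log2 fold change these counts were 2, 4, 4, 1 and 0, and 9 fell with Vem (16). RSV+TCDD against TCDD gave 14 without a filter, 15 with only its own libraries and 14 with the 8 libraries, and the difference gave 7, 9 and 9 higher and 2, 2 and 2 lower. Early genes called lower in RSV+Vem against Vem numbered 1 without a filter, with its own libraries and with the 8 libraries, those in RSV+TCDD against TCDD 1 with its own libraries, the 8 libraries and the replicate block, and those in the difference 1 with DESeq2 and with the replicate block. With only its own libraries, RSV against DMSO gave 1 lower. Over single libraries left out, the counts ran from 4 to 14 higher and 1 to 3 lower with RSV, 0 to 1 lower in RSV+Vem against Vem, 0 to 1 higher in Vem against DMSO, and 2 to 8 higher and 0 to 1 lower in the difference.

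Calls over all genes, higher and lower, were 3302 and 3276 in RSV against DMSO, 2992 and 3076 in RSV+TCDD against TCDD, 3089 and 3002 in RSV+Vem against Vem, 1479 and 2125 in RSV+Vem against RSV+TCDD, 1687 and 1563 in the difference, 3877 and 4269 in Vem against TCDD, and 4082 and 4341 in Vem against DMSO. With spike-in scaling they were 261 and 113, 162 and 1644, 337 and 54, 171 and 88, 204 and 2, 359 and 1194, and, in the last, 196 higher. With the threshold of 1 they were 293 and 56, 244 and 70, 319 and 54, 34 and 153, 110 and 31, 402 and 822, and 454 and 780.

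The replicate block, with numbers that share no known batch, changed no call of a member, with for example 4.41 for SLAMF7 in RSV+Vem against Vem and -3.43 (adjusted p = 0.0462) for its difference of the RSV effect. No member was left with at least 10 counts in every library, and with only the libraries of a contrast the filter left none in Vem against TCDD and only SLAMF7 in RSV+Vem against Vem. Low counts without RSV set the precision of every fold given here, and a fold of ARC against Vem is given only against an assumed floor of 3 counts.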
